A study of Mus musculus with 7 samples.

Results

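The TGF-beta ligands, their receptors and the Smad proteins that carry their signal were examined in healing shoulder joints with and without Tenascin C. The 10 genes were taken by symbol: the ligands Tgfb1, Tgfb2 and Tgfb3, the receptors Tgfbr1, Tgfbr2 and Tgfbr3, the receptor-activated Smads Smad2 and Smad3, and the inhibitory Smads Smad6 and Smad7. They are 10 of 56854 gene identifiers listed for every library, and each was read in every library. The samples were whole shoulder joints of 7 mice, dissected 2 weeks after the supraspinatus tendon of the left shoulder was repaired. In 3 mice the genotype was wild type and in 4 it was Tnc-/-. Every joint had been operated on, so both groups share the repair, and no unoperated joint was analysed here. Strain, age, sex and the way the Tnc allele was made are not given in the sources used here.

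TGF-beta ligands are secreted bound to a latency peptide and stored in the matrix, from which integrins, proteases and matricellular proteins release them. The active dimer binds the type II receptor TGFBR2, which recruits and phosphorylates the type I receptor TGFBR1; this kinase phosphorylates SMAD2 and SMAD3, which enter the nucleus and drive matrix genes, while SMAD6 and SMAD7 damp the signal. In tendon the pathway is known both for the induction of tendon progenitors in the embryo and for scar formation after injury.

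The promoters of the ligands are known to differ in kind, and these sequences show which elements lie in front of the most abundant ligand, of the least abundant one and of the type I receptor. Each is the 250 bases before the annotated start, 5′ to 3′ on the gene's strand, from RefSeq promoters on GRCm38.p6, in which 6 of the 10 genes were matched. Capitals mark 3 motifs that were searched on both strands. The GC box was spelled GGGCGG. The TATA box, which places the transcription start, was spelled TATAAA. The core of a Smad binding site was spelled CAGAC. A match on the other strand appears as its reverse complement, and no match overlaps another.
Tgfb1: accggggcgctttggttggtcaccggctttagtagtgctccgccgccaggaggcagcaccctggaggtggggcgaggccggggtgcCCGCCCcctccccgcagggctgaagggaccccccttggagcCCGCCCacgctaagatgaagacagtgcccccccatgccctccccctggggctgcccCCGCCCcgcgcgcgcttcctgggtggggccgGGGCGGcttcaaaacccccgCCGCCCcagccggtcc
Tgfb2: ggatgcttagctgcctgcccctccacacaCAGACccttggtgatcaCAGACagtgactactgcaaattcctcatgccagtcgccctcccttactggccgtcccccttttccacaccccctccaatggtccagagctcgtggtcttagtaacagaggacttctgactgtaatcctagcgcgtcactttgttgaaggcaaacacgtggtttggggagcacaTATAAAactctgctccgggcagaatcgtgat
Tgfbr1: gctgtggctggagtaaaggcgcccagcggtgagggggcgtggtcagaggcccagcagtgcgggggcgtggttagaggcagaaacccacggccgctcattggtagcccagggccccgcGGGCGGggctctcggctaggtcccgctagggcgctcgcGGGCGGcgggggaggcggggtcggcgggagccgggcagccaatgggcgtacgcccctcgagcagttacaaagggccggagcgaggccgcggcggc
The Tgfb1 window lies at chr7:25686752-25687001 on the plus strand and the Tgfb2 window at chr1:186705990-186706239 on the minus strand. The Tgfbr1 window, at chr4:47352972-47353221 on the plus strand, is the upstream one of 2 starts.

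The Tgfb1 window held 5 GC boxes, no TATAAA and no CAGAC, and was 75.2% G and C, against a median of 52.4% over 32851 such windows. The Tgfb2 window was 53.6% G and C and held a TATAAA that begins 31 bases before the start, 2 CAGAC and no GC box; in GENCODE M21, 167 of its bases lie in an exon of the antisense gene Gm29491. The Tgfbr1 window held 2 GC boxes and neither other motif, at 74.8% G and C. Of all windows, 32.7% held GGGCGG, 12.4% TATAAA and 42.2% CAGAC. These matches describe the letters only; binding was not measured.

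The values below are CPM, each gene's count as a proportion of the library's gene counts, scaled between libraries by the TMM method. Reads counted in genes numbered 13464057 to 18503833 in the wild-type libraries and 19250322 to 28191101 in Tnc-/-. Tnc itself was at 285 to 436 CPM in wild type and at 33.3 to 54.9 CPM in Tnc-/- (log2 fold change -3.08, SE 0.21; edgeR quasi-likelihood test, adjusted p = 2.8e-04). The identifiers listed differed between the genotypes, with 126 given for wild type only and 87 for Tnc-/- only; whether the counting differed is not given in the sources used here, and any such difference cannot be told apart from genotype. Wild-type libraries 2 and 3 stood apart from the other 5. Olfactory, vomeronasal and trace-amine receptors (2026 genes), not known to be used in a joint, summed to 1564 and 1113 CPM of unscaled counts there, to 89.77 CPM in wild-type library 1 and to 33.34 to 41.5 CPM in Tnc-/-. Fits were therefore also made without those 2 libraries, which leaves 1 wild-type library whose spread is assumed to be like that of the others. Joint markers were present: the summed level of 7 tendon genes was 3543 to 4647 CPM in wild type and 3407 to 6049 CPM in Tnc-/-, and that of 8 cartilage genes was 752 to 1660 and 947 to 2705 CPM. The tendon gene Scx, however, had 0 counts in all libraries; in GENCODE M21 its whole body lies inside Bop1 on the opposite strand.

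Over all genes, 5159 of 17791 tested had an adjusted p under 0.05 (edgeR), or 29.0%, with 10.3% called higher in Tnc-/- and 18.7% called lower. This balance changed with the fit. Limma voom called 707 genes higher and 266 lower, and edgeR with library totals as scaling called 951 higher and 4541 lower. All 10 TGF-beta genes passed the filter on low counts. Of these, 2 were called, not a larger share than among all genes: Tgfb1 was higher and Tgfbr3 lower in Tnc-/-. Their median log2 fold change was 0.14, against -0.001 for all genes. In 4 of the 10 the groups did not overlap (Tgfb1, Smad3, Tgfbr1 and Tgfbr3), against 35.3% of all genes. Without wild-type libraries 2 and 3 the called gene was Tgfbr1 alone, where 4.45% of genes were called. With the summed level of the smell and pheromone receptors as a covariate none of the 10 was called by edgeR (2 at an unadjusted p under 0.05), where 2.23% of genes were called. That sum was higher in every wild-type library than in every Tnc-/- library. The covariate fits therefore cannot fully separate it from genotype, and a call lost in them does not show which of them a difference belongs to. Since each library is a whole joint, fewer cells of a type and less RNA per cell cannot be told apart in any of these levels.

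**Figure D1:**
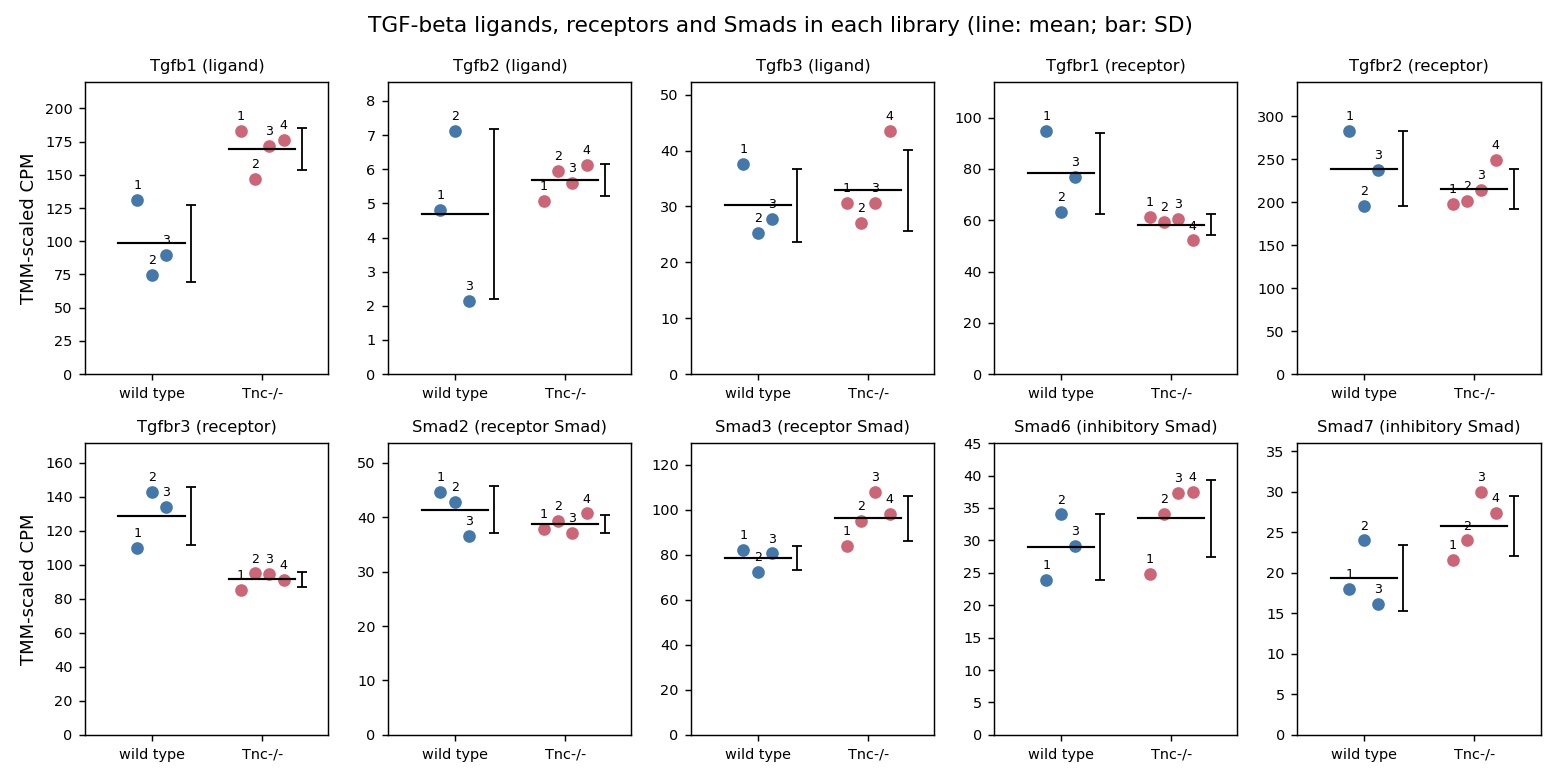
Level of each of the 10 genes in TMM-scaled CPM (y axis, from 0) in wild-type (blue, n = 3) and Tnc-/- (red, n = 4) joints; numbers are library numbers, lines are means and bars are SD. The 4 Tnc-/- points of Tgfb1 lie between 147 and 183 CPM, above the wild-type points, and those of Tgfbr3 lie between 85.4 and 94.9 CPM, below them.

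Tgfb1, the main ligand of wound repair and the one carried by platelets and leukocytes, rose in Tnc-/- joints. In CPM, libraries 1 to 3 of wild type held 131, 74.6 and 89.6, and libraries 1 to 4 of Tnc-/- held 183, 147, 172 and 176. The groups did not overlap: each Tnc-/- joint exceeded each wild-type joint, and wild-type library 1 lay nearest to them. The means were 98.4 ± 29.1 CPM (SD, n = 3) and 169 ± 15.8 CPM (SD, n = 4), 1.72 times higher; the log2 fold change was 0.77, its SE 0.19 and the adjusted p 0.0203 (edgeR). The direction held in 18 of 18 alternative fits and the call in 9. When any 1 library was left out the log2 fold change stayed between 0.61 and 1.11, but the call was lost in 5 of those 7 fits. The adjusted p (edgeR) was 0.0621 without wild-type library 2, 0.0881 without wild-type library 3, and 0.0636, 0.0595 and 0.0556 without Tnc-/- library 1, 3 or 4. It was 0.0371 without Tnc-/- library 2 and 3.9e-05 without wild-type library 1, where the log2 fold change was 1.11 and 64.2% of all genes were called. Without wild-type libraries 2 and 3 together the log2 fold change was 0.37 (edgeR, adjusted p = 0.237), and with the receptor covariate it was 0.15 (edgeR, adjusted p = 0.778).

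Summed markers of 5 of 11 cell types were, like Tgfb1, higher in every Tnc-/- joint, and 3 of the 5 belong to blood-forming cells. Platelets store TGF-beta1 protein, and the 9 megakaryocyte and platelet genes summed to 521, 241 and 329 CPM in wild type and to 975, 548, 773 and 743 CPM in Tnc-/-, with 4 of 8 tested genes called higher; Gp1bb was at 0 in at least 1 library. The 10 neutrophil and marrow genes summed to 2789 to 5951 CPM in wild type and 6589 to 11190 CPM in Tnc-/- (7 of 10 called higher), and the 11 erythroid genes to 4905 to 9674 and 13895 to 27088 CPM (7 of 10 tested called higher, with Alas2 at 0). In these 3 sums, as in Tgfb1, library 1 was the highest and library 2 the lowest among the wild-type joints. Among Tnc-/- joints, library 1 was the highest for all 3, and library 2 the lowest for Tgfb1, the platelet sum and the neutrophil sum. The 9 macrophage genes overlapped, at 1772 to 3471 CPM in wild type and 2824 to 3272 CPM in Tnc-/-, with 0 of 9 called. The macrophage sum, too, was highest in library 1 of each genotype and, among Tnc-/- joints, lowest in library 2. This order is thus not particular to the platelet and neutrophil sums. Outside the blood lineages, 10 skeletal muscle genes (22421 to 31889 CPM in wild type, 34348 to 50580 CPM in Tnc-/-; 3 of 10 called higher) and 6 adipocyte genes (397 to 500 and 509 to 856 CPM; 2 of 6 called higher) were also higher in every Tnc-/- joint in their sums. The part of any of these cells in the Tgfb1 difference was not tested.

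**Figure D2:**
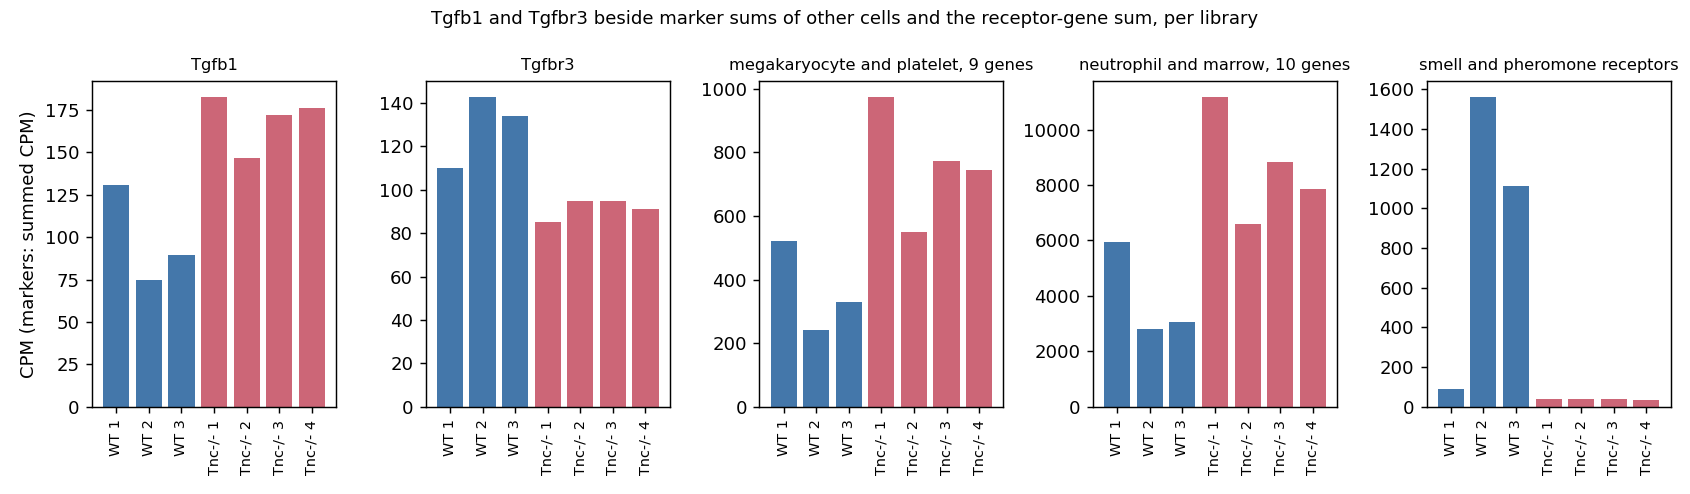
Bars give, for each of the 7 libraries (x axis), the CPM of Tgfb1 and Tgfbr3, the summed CPM of 9 megakaryocyte and platelet genes and of 10 neutrophil and marrow genes, and the summed unscaled CPM of the smell and pheromone receptor genes (y axes from 0; blue wild type, red Tnc-/-). Tgfb1 and both marker sums are lowest in wild-type libraries 2 and 3, where the receptor sum reaches 1564 and 1113 CPM.

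The other ligands did not pass the threshold. Tgfb3, the isoform linked to tendon development and to wound repair with little scar, was at 37.6, 25.3 and 27.7 CPM in wild type and at 30.6, 27.0, 30.6 and 43.5 CPM in Tnc-/-. The groups overlapped, with Tnc-/- library 4 the highest and wild-type library 2 the lowest (log2 fold change 0.11, SE 0.21; edgeR, adjusted p = 0.731). Its direction changed with the scaling and with the libraries: the log2 fold change was -0.13 with library totals, -0.20 without wild-type libraries 2 and 3 and -0.059 without Tnc-/- library 4. Tgfb2, which needs the co-receptor TGFBR3 to bind the type II receptor well, was rare, with 36 to 137 reads a library. It was at 4.82, 7.12 and 2.15 CPM in wild type and at 5.06, 5.96, 5.59 and 6.12 CPM in Tnc-/-. The wild-type joints spread more widely than the Tnc-/- joints and enclosed them (0.25, SE 0.45; edgeR, adjusted p = 0.706), and without wild-type library 3 the value was -0.089. An antisense gene, Gm29491, shares 124 exon bases with Tgfb2 in GENCODE M21. It had 0 reads in wild type and 16, 1, 4 and 3 reads in Tnc-/-. The strand setting of the counting is not given, so its reads and those of Tgfb2 may not be separable. Tgfb3 shares 163 and 257 exon bases with the opposite-strand genes Gm37804 and Gm48008. Tgfbr3 shares 297 with Gm43422 on its own strand. Each of these partners had 0 reads in every library. Tgfb1 overlaps no annotated gene. The part of shared bases in the Tgfb3 and Tgfbr3 values was not tested.

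Within the ligands, the share of Tgfb1 was higher and that of Tgfb3 lower in every Tnc-/- joint; the shares themselves were not tested. Read counts were divided by exon length, so that genes can be compared within a library without any scaling between libraries. Tgfb1 made up 68.5, 63.0 and 67.5% of the summed ligand level in wild type and 78.5, 76.3, 77.3 and 71.4% in Tnc-/-. Tgfb3 made up 29.3, 31.8 and 31.1%, and 19.6, 21, 20.5 and 26.4%. Neither share overlapped between the genotypes, and Tnc-/- library 4 lay nearest to wild type in both. The means were 66.3 ± 2.93% (SD, n = 3) and 75.9 ± 3.1% (SD, n = 4) for Tgfb1, and 30.7 ± 1.25% and 21.9 ± 3.07% for Tgfb3. Tgfb2 made up 1.41 to 5.24% in wild type and 1.89 to 2.7% in Tnc-/-. The length used sets the level of these shares: with the longest transcript, 2.57 kb for Tgfb1 in place of 5.04 kb of exon, the Tgfb1 means were 79.2 and 85.9%, and the groups again did not overlap.

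The ratio of Tgfb3 to Tgfb1 was 0.429, 0.505 and 0.46 in wild type and 0.249, 0.275, 0.265 and 0.369 in Tnc-/-. It was lower in 4 of 4 Tnc-/- joints, by a factor of 1.62 (log2 difference -0.70; two-sided exact permutation p = 0.0571, which is the smallest possible for 3 against 4; 0.114 after Benjamini-Hochberg adjustment over 6 ratios). The log2 difference was -0.82 to -0.63 when any 1 library was left out and -0.58 without wild-type libraries 2 and 3.

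Among the receptors, Tgfbr3, the large membrane proteoglycan betaglycan that presents ligand, fell in Tnc-/-. It was at 110, 143 and 134 CPM in wild type and at 85.4, 94.9, 94.7 and 91.3 CPM in Tnc-/-. The groups did not overlap, and wild-type library 1 lay nearest to the Tnc-/- joints. The means were 129 ± 17.1 CPM (SD, n = 3) and 91.6 ± 4.42 CPM (SD, n = 4), 0.711 times the wild-type level; the log2 fold change was -0.51, its SE 0.13 and the adjusted p 0.0208 (edgeR). The gene was lower in 18 of 18 alternative fits and called in 7. In the 7 fits that each left out 1 library the log2 fold change was -0.54 to -0.42. Of these, the one without wild-type library 1 kept an adjusted p under 0.05 (edgeR, 0.00214); without wild-type library 2 or 3 it was 0.0682 or 0.0769, and without Tnc-/- library 1, 2, 3 or 4 it was 0.0584, 0.0500, 0.0606 or 0.0548. Without wild-type libraries 2 and 3 together the log2 fold change was -0.27 (edgeR, adjusted p = 0.296).

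Tgfbr3 spans 183 kb, the longest of the 10 genes. Among genes spanning over 100 kb, calls were lower in Tnc-/- in 94.0% of cases and the median log2 fold change was -0.99, against 39.4% and 0.21 for genes up to 30 kb, the class of Tgfb1 (18.1 kb). With the receptor covariate the log2 fold change of Tgfbr3 was -0.15 (edgeR, adjusted p = 0.742). In the class of 30 to 100 kb, which holds Tgfbr1, 71.7% of the calls were lower and the median was -0.15. The other of the 10 genes spanning over 100 kb, Smad3, had a log2 fold change of 0.28 (edgeR, adjusted p = 0.128). The part of gene length in the Tgfbr3 difference was not tested.

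Tgfbr1, the type I receptor kinase, was at 94.8, 63.3 and 77.0 CPM in wild type and at 61.3, 59.2, 60.6 and 52.1 CPM in Tnc-/-. All Tnc-/- joints lay below all wild-type joints, the nearest pair being 61.3 and 63.3 CPM, and wild-type library 1 was the highest. The change was -0.44 on the log2 scale (SE 0.15); edgeR gave an adjusted p of 0.0521, which narrowly missed the threshold. Unlike Tgfb1 and Tgfbr3, the value was larger without wild-type libraries 2 and 3, at -0.71 (edgeR, adjusted p = 0.0285), and without wild-type library 2 alone it was -0.57 (0.0330). Without wild-type library 1 it was -0.20 (0.215), and with the receptor covariate it was -0.83 and not called (edgeR, adjusted p = 0.0591). It was also called with library totals as scaling, at -0.68 (edgeR, adjusted p = 0.00967), where 30.9% of genes were called and the median of all genes was -0.243. It was lower in Tnc-/- in 18 of 18 alternative fits and called in 7.

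Tgfbr2, the type II receptor that binds ligand first, was the most abundant of the 10 by CPM. It was at 283, 196 and 238 CPM in wild type and at 198, 202, 214 and 249 CPM in Tnc-/-. The groups overlapped (log2 fold change -0.17, SE 0.16; edgeR, adjusted p = 0.465). Without wild-type library 1 the value was 0.054, and with the receptor covariate it was -0.55 (edgeR, adjusted p = 0.222). The ratio of Tgfbr1 to Tgfbr2 per kb of exon was 0.405 to 0.419 in wild type and 0.389, 0.368, 0.355 and 0.262 in Tnc-/-. The wild-type joints were close to each other and above all Tnc-/- joints (log2 difference -0.27; exact two-sided permutation test, p = 0.0571, adjusted 0.114), and Tnc-/- library 4 was the lowest. When any 1 library was left out the difference was -0.34 to -0.15, the smallest being without Tnc-/- library 4. The ratio of Tgfbr3 to Tgfbr2 was 0.485, 0.913 and 0.703 in wild type and 0.458 to 0.588 in Tnc-/-, with overlap (-0.35; exact two-sided permutation test, p = 0.229). Without wild-type libraries 2 and 3 this difference was 0.14.

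**Figure D3:**
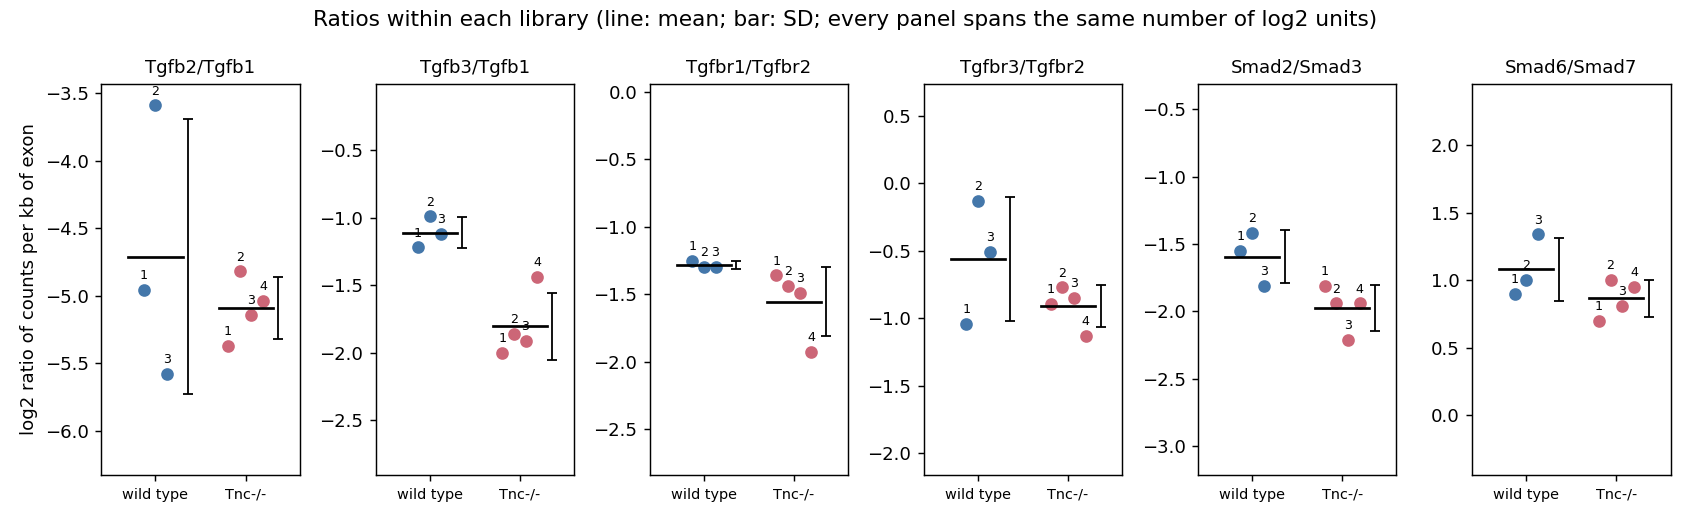
Log2 ratio of counts per kb of exon for 6 pairs of genes (y axis, every panel spanning the same number of log2 units) in wild-type (blue, n = 3) and Tnc-/- (red, n = 4) libraries; numbers are library numbers, lines means and bars SD. Tgfb3/Tgfb1, Tgfbr1/Tgfbr2 and Smad2/Smad3 lie lower in every Tnc-/- library, with mean differences of -0.70, -0.27 and -0.38.

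Neither receptor-activated Smad passed the threshold. Smad3, which binds DNA directly and is the main carrier of the fibrotic response, was at 82.3, 72.3 and 80.6 CPM in wild type and at 83.8, 94.9, 108 and 98.3 CPM in Tnc-/-. The groups did not overlap after TMM scaling, by 83.8 against 82.3 CPM, but did in unscaled CPM (log2 fold change 0.28, SE 0.13; edgeR, adjusted p = 0.128). Without wild-type library 1 it was 0.40 (edgeR, adjusted p = 0.0271). Smad2, its partner, was at 44.7, 42.9 and 36.5 CPM in wild type and at 37.8, 39.3, 37.1 and 40.7 CPM in Tnc-/-, with overlap (-0.11, SE 0.13; edgeR, adjusted p = 0.532). With library totals it was -0.35 and called (edgeR, adjusted p = 0.0464), and without wild-type library 1 it was 0.029.

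The ratio of Smad2 to Smad3 does not depend on the scaling. It was 0.342, 0.374 and 0.285 in wild type and 0.285, 0.261, 0.216 and 0.262 in Tnc-/-. Wild-type library 3 and Tnc-/- library 1 were nearly equal, and no Tnc-/- joint exceeded a wild-type joint (log2 difference -0.38; exact two-sided permutation test, p = 0.0571, adjusted 0.114). The difference was -0.49 to -0.30 when any 1 library was left out and -0.43 without wild-type libraries 2 and 3.

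The inhibitory Smads, which are themselves induced by the signal, did not pass the threshold. Smad7, which blocks TGFBR1 and recruits the ubiquitin ligases that remove it, was at 18.0, 24.0 and 16.2 CPM in wild type and at 21.6, 24.0, 30 and 27.4 CPM in Tnc-/-. The groups overlapped through wild-type library 2 (log2 fold change 0.38, SE 0.20; edgeR, adjusted p = 0.180). The fitted value was above 0 in 18 of 18 alternatives, from 0.13 to 0.60, and called in 0 of them. Smad6, the inhibitor that acts mainly on BMP signals, was at 23.9, 34.0 and 29.1 CPM in wild type and at 24.8, 34.1, 37.3 and 37.5 CPM in Tnc-/-. The groups overlapped (0.18, SE 0.20; edgeR, adjusted p = 0.520), and library totals turned the value to -0.077. It was 0.60 with the receptor covariate, 0.48 without wild-type libraries 2 and 3, and 0.12 to 0.32 when any 1 library was left out. Smad6 was called in 0 of 18 alternatives. The ratio of Smad6 to Smad7 was 1.87, 2.0 and 2.53 in wild type and 1.62, 2.01, 1.75 and 1.93 in Tnc-/-, with overlap (-0.21; exact two-sided permutation test, p = 0.286).

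**Figure D4:**
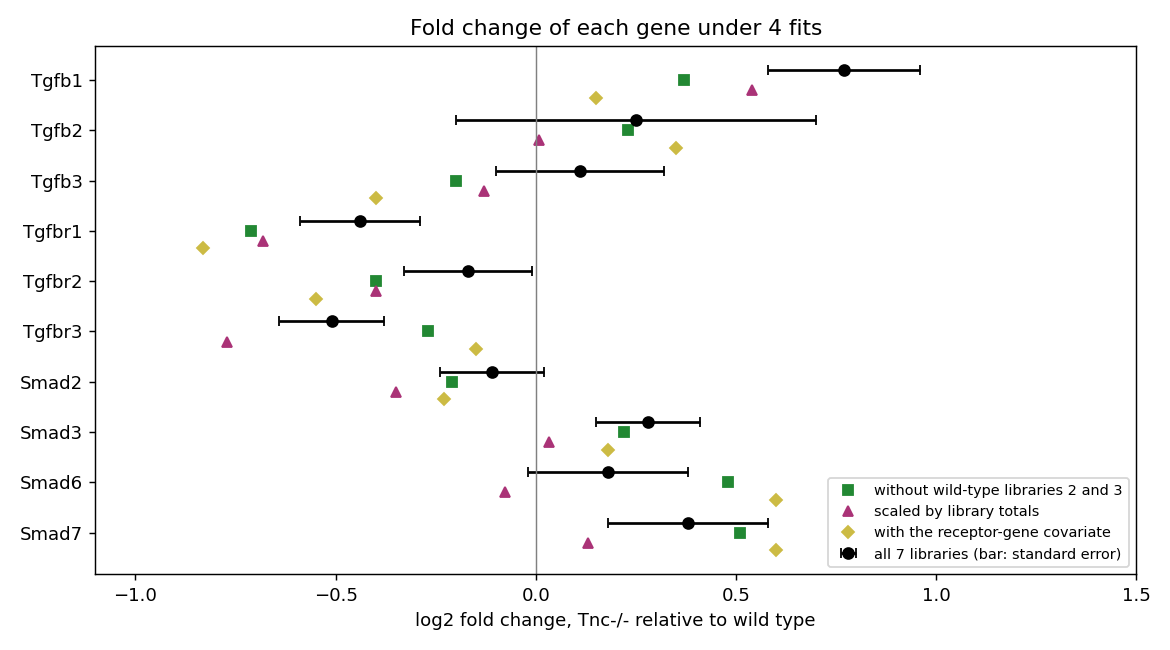
Log2 fold change of the 10 genes, Tnc-/- relative to wild type (x axis), in the fit of all 7 libraries (black, with standard error), without wild-type libraries 2 and 3 (green), with library totals as scaling (purple) and with the receptor-gene covariate (yellow). Tgfb1 moves from 0.77 to 0.37 and Tgfbr3 from -0.51 to -0.27 without wild-type libraries 2 and 3, while Tgfbr1 moves from -0.44 to -0.71.

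Per kb of exon, the order of the 10 genes by mean put the type II receptor first in wild type and Tgfb1 first in Tnc-/-. In wild type Tgfb1 reached 26.0 CPM per kb and Tgfbr2 went down to 23.9, so their ranges overlapped. The order rests on the length used, 5.04 kb of exon for Tgfb1 against 2.57 kb for its longest transcript. It was not made with the longest transcripts. In wild type Tgfbr2 was at 29.2 ± 5.35 CPM per kb (SD, n = 3), above Tgfbr3 at 19.7 ± 2.61 without overlap. Tgfb1 (19.5 ± 5.78), Smad3 (14.1 ± 0.963) and Tgfbr1 (12 ± 2.42) followed, each overlapping its neighbours. Smad6 and Tgfb3, at 9.04 ± 1.57 and 8.92 ± 1.94, could not be ordered, and both lay above Smad2 and Smad7, at 4.71 ± 0.491 and 4.3 ± 0.903. In Tnc-/- joints Tgfb1 was at 33.6 ± 3.13 CPM per kb (SD, n = 4) and overlapped Tgfbr2 at 26.3 ± 2.86; then came Smad3 (17.4 ± 1.84) and Tgfbr3 (14.0 ± 0.676), without overlap. Smad6, Tgfb3 and Tgfbr1 formed the next group at 10.4, 9.73 and 8.92 CPM per kb, and Smad7 lay above Smad2, at 5.69 and 4.41. Tgfb2 was last in both genotypes, at 0.811 ± 0.43 and 0.981 ± 0.0806 CPM per kb.

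Around these genes, 60 further genes of the pathway were listed by role. Of 58 tested, 9 were called, 5 higher and 4 lower in Tnc-/-, or 15.5%, again below the 29.0% of all genes. The median log2 fold change of those tested was 0.06. The balance of directions depended on the fit. With library totals as scaling the calls were 1 higher and 11 lower, against 5.35% and 25.5% of all genes. Without wild-type library 1 they were 18 higher and 4 lower, against 24.3% and 39.9%. Without wild-type libraries 2 and 3 the count was 2, Itgav and Snai2, both lower, in a fit that called 4.45% of all genes. The list was chosen with earlier results of these data known.

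Of 15 genes that store, activate or trap the ligand, 3 were called. Itgav, the integrin subunit that releases active TGF-beta from its latency peptide, fell from 101, 79.4 and 101 CPM in wild type to 60.6, 60.1, 64.4 and 62.9 CPM in Tnc-/-. Each Tnc-/- joint lay below each wild-type joint (log2 fold change -0.62, SE 0.12; edgeR, adjusted p = 0.00929), and the gene was called in 17 of 18 alternative fits. With the receptor covariate it was at -0.79 and not called (edgeR, adjusted p = 0.0641). Itgav spans 82.5 kb, in the class of 30 to 100 kb, where 71.7% of calls were lower and the median was -0.15. Furin, the protease that cuts the ligand precursor, rose from 98.7, 60.6 and 67.0 to 111, 111, 122 and 144 CPM (0.68, SE 0.19; edgeR, adjusted p = 0.0271). Nrros, which tethers latent TGF-beta1 on myeloid cells, rose from 63.5, 31.6 and 41.9 to 94.5, 65.7, 74.5 and 74.1 CPM (0.74, SE 0.23; edgeR, adjusted p = 0.0422). For Furin and Nrros, as for Tgfb1, wild-type libraries 2 and 3 were the lowest of all. Without them the log2 fold changes were 0.30 for Furin and 0.28 for Nrros (edgeR, adjusted p = 0.339 and 0.409), and with the receptor covariate 0.08 and 0.03 (0.880 and 0.966). Furin was called in 7 and Nrros in 5 of 18 alternatives. The abundant proteoglycans that bind TGF-beta did not pass the threshold: decorin (Dcn) averaged 2701 ± 482 CPM over 3 wild-type and 2015 ± 110.0 CPM over 4 Tnc-/- joints (SD), without overlap (-0.44; edgeR, adjusted p = 0.102), and biglycan (Bgn) was at 2655 ± 588 and 2577 ± 633 CPM (-0.06; 0.873).

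None of the 5 co-receptor and pseudoreceptor genes was called, and 2 of them, Acvrl1 and Lrg1 (named after their values were seen), lay higher in every Tnc-/- joint after TMM scaling, against 18.3% of all genes on that side; in unscaled CPM Acvrl1 overlapped. Endoglin (Eng), the co-receptor of endothelial cells, was at 134 ± 28.6 CPM in wild type and 159 ± 11.9 CPM in Tnc-/- (log2 fold change 0.22, edgeR, adjusted p = 0.327). It was at -0.02 without wild-type libraries 2 and 3 and at -0.18 with the receptor covariate. Without wild-type library 1 it was at 0.45 and called (edgeR, adjusted p = 0.0209), where 64.2% of all genes were called. Cd109, which binds TGF-beta and lowers its signal, was at 108 ± 23.2 and 84.2 ± 10.2 CPM (-0.37, edgeR, adjusted p = 0.128). It was at -0.53 and called without wild-type library 2 (edgeR, adjusted p = 0.0413). Without wild-type library 1 it was at -0.20, and with the receptor covariate at -0.68 (edgeR, adjusted p = 0.332 and 0.189). Of the 15 Smad partners and regulators, 14 could be tested and 1 was called, or 7.14% against 29.0% of all genes. Nedd4l, a ubiquitin ligase for the activated Smads that spans 330.0 kb, was at 24.2, 96.5 and 74.8 CPM in wild type and at 30.3, 32.2, 28.6 and 23.2 CPM in Tnc-/- (-1.22, SE 0.39; edgeR, adjusted p = 0.0463). Wild-type library 1 lay among the Tnc-/- joints, wild-type libraries 2 and 3 alone lay above them, and without them the value was 0.23 (edgeR, adjusted p = 0.518). With the receptor covariate it was 0.86 (0.0848). The corepressor Ski (205 ± 15.7 and 256 ± 31.5 CPM; 0.30; adjusted p = 0.148) and the feedback inhibitor Pmepa1 (119 ± 20.3 and 164 ± 38.2 CPM; 0.44; adjusted p = 0.126) were not called by edgeR in the fit of all libraries. Without wild-type library 1 they were called, at 0.43 and 0.66 (edgeR, adjusted p = 0.0258 and 0.00879). Without wild-type libraries 2 and 3 they were at 0.22 and 0.21, and with the receptor covariate at 0.15 and 0.04.

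Of 25 transcriptional targets, 24 were tested and 5 called, 3 higher and 2 lower, or 20.8% against 29.0% of all genes. Nox4, the NADPH oxidase induced by TGF-beta in fibroblasts, fell from 37.2, 40.3 and 41.1 CPM in wild type to 20.3, 25.8, 24.7 and 23.9 CPM in Tnc-/-. The groups lay well apart (log2 fold change -0.76, SE 0.14; edgeR, adjusted p = 0.00837), wild-type library 1 was like the other wild-type joints, and 16 of 18 alternatives called the gene. The 2 that did not were the fit without wild-type libraries 2 and 3 (-0.66; edgeR, adjusted p = 0.0634) and the one with the receptor covariate (-0.61; 0.192). Nox4 spans 153 kb and so belongs to the class of genes over 100 kb, whose median was -0.99. Snai2, the transcriptional repressor Slug, fell from 33.6, 17.5 and 27.0 to 15.9, 16.1, 16.3 and 15.6 CPM (-0.72, SE 0.22; edgeR, adjusted p = 0.0378). Junb, an AP-1 subunit, rose from 61.2, 70.1 and 43.6 to 77.9, 87.1, 114 and 116 CPM (0.74, SE 0.21; edgeR, adjusted p = 0.0301). Sphk1, which makes sphingosine 1-phosphate, rose from 27.2, 13.8 and 18.7 to 37.5, 29.1, 33.5 and 40.2 CPM (0.80, SE 0.24; edgeR, adjusted p = 0.0343), and Id1, an inhibitor of helix-loop-helix factors that also answers to BMP, from 35.9, 24.0 and 20.6 to 38.4, 43.5, 38.5 and 51.7 CPM (0.66, SE 0.21; edgeR, adjusted p = 0.0448). Without wild-type libraries 2 and 3, Sphk1 was at 0.36, Id1 at 0.25 and Junb at 0.69 (edgeR, adjusted p = 0.295, 0.453 and 0.102), while Snai2 was at -1.08 (0.00899). Without wild-type library 1, the highest for Snai2, it was at -0.42 (edgeR, adjusted p = 0.0949); of the 7 fits that each left out 1 library, the one without wild-type library 2 called it. With the receptor covariate Sphk1 and Id1 were at 0.09 and 0.05 (edgeR, adjusted p = 0.902 and 0.939), Junb at 0.69 (0.334) and Snai2 at -1.30 (0.0406), the 1 pathway gene called in that fit. Snai2 and Junb were called in 8, Sphk1 in 5 and Id1 in 3 of 18 alternatives.

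The collagen I genes, the most abundant targets by the mean over all libraries, overlapped widely. Col1a1 averaged 10552 ± 3050.0 CPM over 3 wild-type joints and 12840 ± 3930.0 CPM over 4 Tnc-/- joints (SD; log2 difference 0.27, SE 0.30; edgeR, adjusted p = 0.542). Col1a2 was at 13587 ± 3916 and 14189 ± 3850.0 CPM (0.05, SE 0.29; edgeR, adjusted p = 0.922). Both values were below 0 without wild-type libraries 2 and 3, at -0.11 for Col1a1 and -0.33 for Col1a2 (edgeR, adjusted p = 0.888 and 0.620), and with the receptor covariate they were -0.40 and -0.61 (0.685 and 0.483). Among the targets not called, Tagln is listed with 5 to 20 reads a library although it is a common smooth muscle gene; in GENCODE M21 the antisense gene Gm48529 covers 56.3% of its body. It was named after its values were seen.

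**Figure D5:**
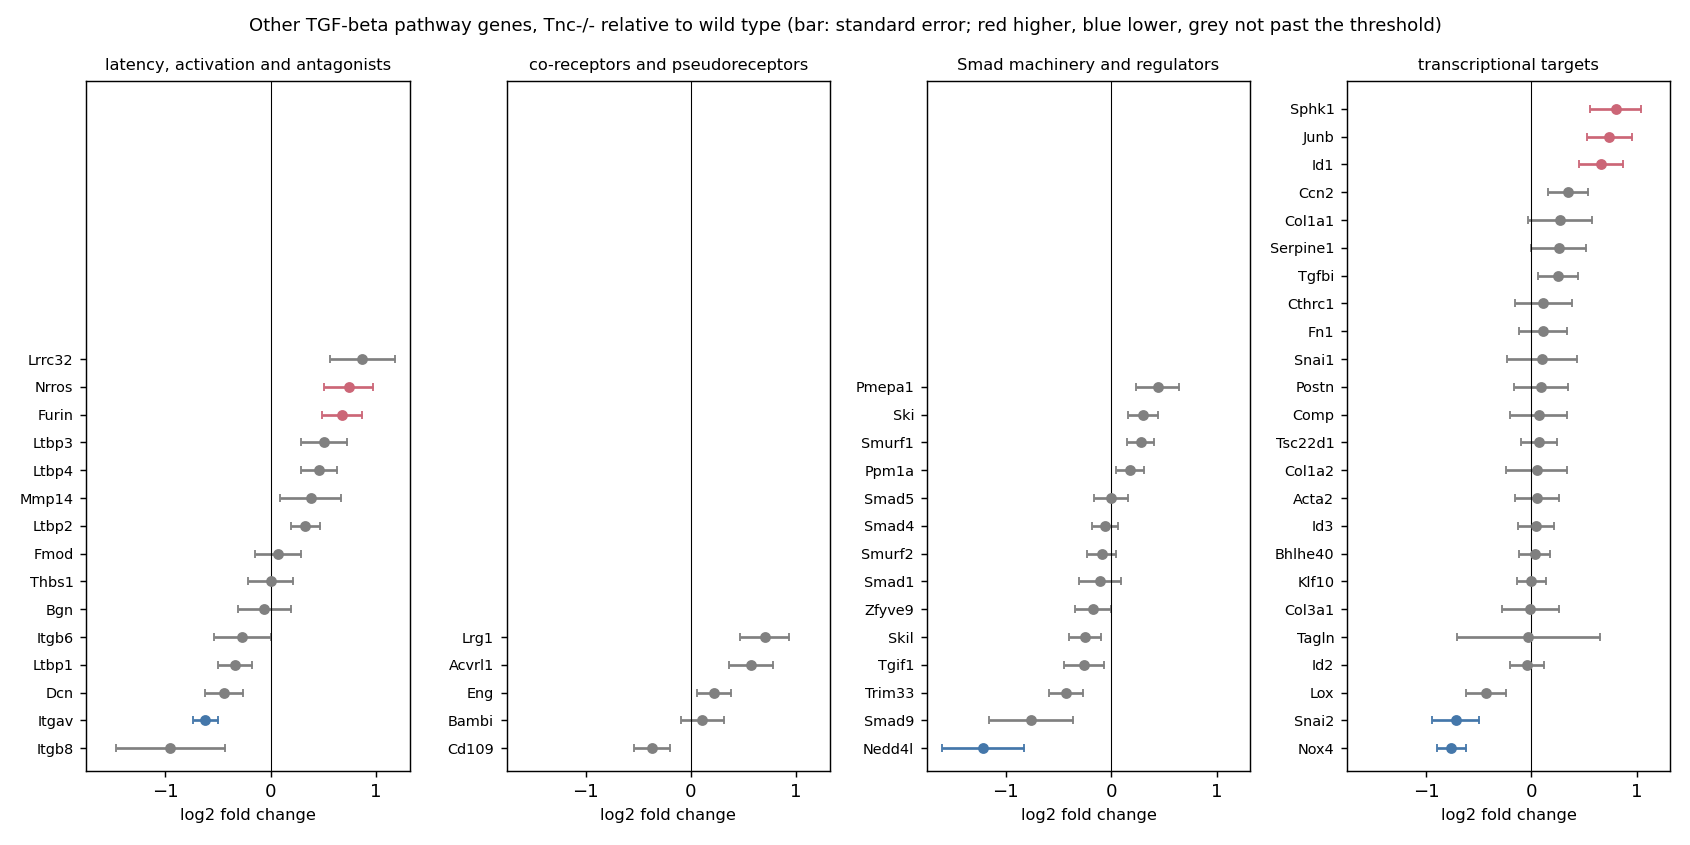
Log2 fold change, Tnc-/- relative to wild type, with standard error (x axis) of 58 tested pathway genes in 4 roles; red points were called higher, blue points lower (adjusted p under 0.05) and grey points were not called. In this TMM-scaled fit of all 7 libraries the called genes are spread over both directions, 5 higher and 4 lower. With library totals as scaling, not drawn here, the calls were 1 higher and 11 lower.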

How the data were processed

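Whole-number read counts for each gene identifier were deposited, 1 file per library; per the submitters' processing notes HISAT2 2.2.1, HTSeq 2.0.2 and GRCm39 were used, and the annotation and strand setting are not given in the sources used here. Rows naming no gene, listed for Tnc-/- libraries alone, held 30.1 to 32.7% of their reads (11.4 to 11.6% ambiguous between genes) and were left out. The 56854 identifiers in all files were fitted; 0 columns were left unmapped. Genes passing filterByExpr were scaled by TMM and tested with edgeR 4.0.16 (R 4.3.3; robust quasi-likelihood F test, genotype as the 1 term), adjusted by Benjamini-Hochberg over all tested genes, threshold 0.05, after a check on simulated counts. Standard errors are the fold change over the square root of F. Exon lengths, spans and overlaps came from GENCODE M21 (GRCm38). Ratios of deposited counts were compared by exact permutation over 35 arrangements. Named pathway genes were, per role, up to 8 past the threshold with the smallest p and the 2 most abundant others. Alternatives were DESeq2 1.42.0, limma 3.58.1 (voom), other scalings, filters and lengths, a covariate, left-out libraries and the replicate number as a block. Members and lists were chosen with earlier results of these data known.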

Additional observations from a re-analysis of the deposited data

Results flagged for a closer look

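Among 47 values of the 4 Tnc-/- libraries checked for a library far from the others, 2 were past the 95% critical value of Dixon's test for 4 values, and about 1 in 20 is past it by chance. Both lay in Tnc-/- library 4. Bgn was at 3526 CPM there, against 2221, 2285 and 2276 CPM in libraries 1 to 3, with a gap of 0.951 of the whole range. Col1a2 was at 19910 CPM, against 11568, 12466 and 12812 CPM, with a gap of 0.851. The same library had the highest Tgfb3 level, 43.5 CPM, and the lowest ratio of Tgfbr1 to Tgfbr2, 0.262.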

How the results depend on the processing

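Against 5159 genes called, DESeq2 gave 9423 (1943 with Bonferroni adjustment), limma voom 973, the receptor covariate 397 and the fit without wild-type libraries 2 and 3 825; leaving out each library gave 2229 to 14113. Of the 10 genes, 2 were called. DESeq2 with Bonferroni adjustment, limma voom and edgeR with the covariate called 0 (4, 3 and 2 at an unadjusted p under 0.05), the fit without wild-type libraries 2 and 3 called 1, library totals 5, and fits without 1 library 0 to 3. Of the pathway genes, 9 in the reported fit, DESeq2 called 14 (2 with Bonferroni adjustment), limma voom 2, the covariate 1, the fit without wild-type libraries 2 and 3 2, and fits without 1 library 2 to 22.

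Log2 fold changes past the threshold before and not after were those of Tgfb1 (DESeq2 with Bonferroni adjustment 0.74, voom 0.80, covariate 0.15, without wild-type libraries 2 and 3 0.37) and Tgfbr3 (-0.55, -0.51, -0.15 and -0.27). Tgfbr1 passed it with DESeq2 (-0.47), DESeq2 size factors (-0.49), library totals (-0.68), upper quartile (-0.51), at least 10 counts in every library (-0.52) and without wild-type libraries 2 and 3 (-0.71). Library totals also called Tgfbr2 (-0.40) and Smad2 (-0.35). Tgfb3 turned to -0.13 with library totals, -0.40 with the covariate and -0.20 without wild-type libraries 2 and 3, and Smad6 to -0.077 with library totals. Library totals moved the median of all genes to -0.243; for the other changes the cause was not tested. Fits without 1 library ranged from 0.61 to 1.11 for Tgfb1, -0.089 to 0.70 for Tgfb2, -0.059 to 0.38 for Tgfb3, -0.57 to -0.20 for Tgfbr1, -0.28 to 0.054 for Tgfbr2, -0.54 to -0.42 for Tgfbr3, -0.19 to 0.029 for Smad2 and 0.21 to 0.40 for Smad3. The Tgfb2/Tgfb1 log2 ratio ranged from -0.82 to 0.18 in such fits, the Tgfbr3/Tgfbr2 ratio turned to 0.14 without wild-type libraries 2 and 3, and the Tgfb3 share differed by -6.09 points with longest transcripts. The other ratios and shares kept their direction or moved by less than the spread.

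Deviations from the group means of same-numbered libraries correlated at -0.005, 0.102 and -0.005 across genes. Those of differently numbered libraries correlated at -0.103 to 0.092. With so few libraries these values cannot settle whether the replicate numbers pair them. With the replicate number as a block, 1932 genes, 1 of the 10 (Tgfb1) and 3 pathway genes were called; Tgfbr3 was at -0.50 (edgeR, adjusted p = 0.0785) and Tgfb3 at -0.041. Among the 10 genes, depth limits Tgfb2 most, at 36 to 137 reads a library.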
